A study of Mus musculus with 8 samples.

Results

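Nuclear genes for the mitochondrial respiratory chain were compared between erythroblasts and blood progenitors of mice that carry the activating JAK2 mutation, and between the labelled Plek2 genotypes of those mice. The genes were chosen by symbol: those that start with Nduf, Uqcr, Atp5 or Cox4 to Cox8, together with Sdha, Sdhb, Sdhc and Sdhd. Of the 23337 genes in the deposited count table, 90 matched, and the 81 with a mean raw count of 20 or more over the 8 libraries were kept. Among them, 74 encode subunits: 35 of complex I, 4 of complex II, 8 of complex III, 14 of complex IV and 13 of complex V. Ndufa4 was placed with complex IV, where its protein is now assigned. A further 4 genes, Ndufaf1, Ndufaf2, Ndufaf3 and Ndufaf4, encode assembly factors of complex I. The remaining 3 carry the letters of the rule without encoding a subunit. Cox4nb, also called Emc8, lies beside Cox4i1, Atp5s encodes a factor once linked to the ATP synthase, and Atp5sl, now named Dmac2, is its relative.

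The mean count is the one measured value in the choice. Just inside it lay Cox7c, with a mean of 26.9 counts, and Cox6a2, with 46.5 counts. Just outside lay Atp5l, with 15.0 counts, and Atp5g2, with 9.88 counts. The other genes left out were Cox7a1 (5.88 counts), Cox4i2 (5.63 counts), Ndufa4l2 (1.13 counts), and Ndufs5, Cox8b, Cox8c and Cox7b2, which are listed at 0 in all 8 libraries. Ndufs5 is a regular subunit of complex I whose transcript shares 21.7% of its 50-base words with other transcripts, and Atp5l shares 84.8%. Whether reads of these genes were lost in counting was not tested. All 81 genes entered every test below. In the erythroblast libraries taken alone, 79 of the 81 reached a mean count of 20, all but Cox6a2 and Cox7c, and in the progenitor libraries all 81 did. The genes encoded in the mitochondrial genome were not analysed here.

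All 8 libraries came from C57BL/6 mice aged 4 months with 1 mutant and 1 normal Jak2 allele (JAK2V617F/+), so the controls carry the mutation too and no library has normal Jak2. The mice were labelled Plek2+/+ or Plek2-/-. Erythroblasts were taken from bone marrow as cells positive for TER119, an antigen of maturing red cells, and progenitors as Kit-positive cells of the lineage-negative marrow. Each of the 4 groups has 2 libraries. Whether the pair of libraries in a group stems from different mice is not in the labels, so the p-values measure the spread between libraries, which may be technical. In such bulk samples, fewer cells of a type and less RNA per cell cannot be told apart.

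The respiratory chain passes electrons from NADH (complex I) and succinate (complex II) through coenzyme Q to complex III, cytochrome c and complex IV, which hands them to oxygen. Complexes I, III and IV pump protons, and complex V, the ATP synthase, uses the proton gradient to make ATP. Complex II is also an enzyme of the tricarboxylic acid cycle and is the only one of the 5 with no subunit encoded in mitochondria. Erythroblasts need mitochondria for the synthesis of haem and lose them as they mature into red cells, and JAK2 relays the erythropoietin signal that drives this maturation. Plek2 encodes pleckstrin-2, a membrane-associated protein of erythroblasts.

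Library totals ran from 16038035 to 23521726 counts. The libraries of each pair differed beyond sampling noise (chi-square per degree of freedom from 5.92 to 16.5). The sorted populations carried their markers: summed erythroid markers were at 107042 to 130694 CPM (counts relative to library size, here scaled by the trimmed mean of M-values, TMM) in erythroblasts and 1104 to 1283 in progenitors, with 1 of 13 erythroid markers at 0 in the progenitors. Summed progenitor markers were at 180 to 252 CPM in erythroblasts and 1052 to 1171 in progenitors. Plek2 itself had 1770 and 1894 counts in erythroblasts labelled Plek2+/+ and 616 and 781 in those labelled Plek2-/-, but 29 and 21 counts in progenitors labelled Plek2+/+ and 130 and 173 in those labelled Plek2-/-. The progenitor values go against the label, so the genotypes are called labels throughout. Xist and Y-linked genes split the 8 libraries by label as well, into female for Plek2+/+ and male for Plek2-/-, so that sex and label cannot be told apart. Markers of neutrophils differed between all groups. Their summed level was 20365 and 23556 CPM in erythroblasts labelled Plek2+/+, 15773 and 14285 in those labelled Plek2-/-, 7782 and 4674 in progenitors labelled Plek2+/+, and 19742 and 26738 in those labelled Plek2-/-.

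Most respiratory chain genes were higher in erythroblasts than in progenitors relative to the other genes of the cell. With TMM scaling, their summed level in the libraries labelled Plek2+/+ was 9462 and 10100 CPM in erythroblasts and 6730 and 6795 CPM in progenitors. Under the Plek2-/- label it was 10546 and 10332 CPM in erythroblasts and 6530 and 5943 CPM in progenitors. All 4 erythroblast libraries lay above all 4 progenitor libraries. Under the Plek2+/+ label, 66 of the 81 genes were higher in erythroblasts (edgeR quasi-likelihood test, Benjamini-Hochberg adjusted p below 0.05), 2 were lower and 13 were not called. Of all 13365 genes tested, 36.0% were higher and 37.8% lower. The median log2 fold change of the 81 genes was 0.56, or 1.47-fold, against -0.06 for all genes. Under the Plek2-/- label, 75 were higher and 3 lower, against 37.5% and 39.2% of all genes, and the median was 0.76, or 1.69-fold. Markers of other cells did not all move this way: under the Plek2+/+ label 14 of 14 neutrophil markers were higher in erythroblasts and under the Plek2-/- label 14 of 14 were lower, while 8 of 9 macrophage markers were higher under both (1243 to 1478 CPM summed in erythroblasts, 296 to 344 in progenitors). Markers of primary granules, B cells and eosinophils, basophils and mast cells were lower in 6 of 8, 7 of 10 and 5 of 9 cases under the Plek2+/+ label. Under the same label 6 of 9 megakaryocyte markers were higher and none lower, and 8 of 9 T and NK cell markers were lower and 1 higher. Their part in the result was not tested.

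Changes of over 2-fold were not more common among these genes than elsewhere. Under the Plek2+/+ label, 9 of 81 were over 2-fold higher, where 17.9% of all genes were, and 2 were over 2-fold lower, where 19.2% were. Under the Plek2-/- label, 13 were over 2-fold higher against 18.7% of all genes, and 2 over 2-fold lower against 23.5%. Most of the called genes thus differed by less than 2-fold. The log2 fold changes had a standard deviation of 0.47 across the 81 genes under the Plek2+/+ label and 0.57 under the Plek2-/- label.

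The sign of this shift rests on the scaling. The TMM factors were 0.738 to 0.772 in erythroblasts and 1.30 to 1.33 in progenitors, so that CPM values of erythroblasts are raised against those of progenitors. As a share of all counts, the 81 genes took 0.738% ± 0.010 (SD, n = 2) in erythroblasts and 0.898% ± 0.006 in progenitors under the Plek2+/+ label, and 0.794% ± 0.015 and 0.818% ± 0.067 under the Plek2-/- label. With library totals in place of TMM factors, 7 genes were higher and 44 lower under the Plek2+/+ label, and 12 were higher and 28 lower under the Plek2-/- label. With upper-quartile factors, the counts were 42 higher and 10 lower, and 55 higher and 4 lower. The shares of all genes called under these scalings are not given, here or below, so such counts show no change particular to these genes. With library totals, 71.7% of all tested genes lay below the median of the 81 genes under the Plek2+/+ label. Under the Plek2-/- label 75.8% did. The median of all genes moved with the scaling, to -0.87 with library totals and -0.36 with upper-quartile factors under the Plek2+/+ label. The median of the 81 genes lay 0.61 to 0.62 above it with TMM, library totals and upper-quartile factors. A change of scaling moves all genes nearly alike, so this gap could hardly differ and is no check of the result. Under every one of these scalings 7 genes were higher under the Plek2+/+ label: Cox6b2, Ndufb9, Atp5s, Uqcrh, Cox6a1, Cox7a2 and Atp5h. All of these but Atp5s were also higher under the Plek2-/- label with library totals. All changes below are given with TMM scaling, and so relative to the bulk of the genes.

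**Figure D1:**
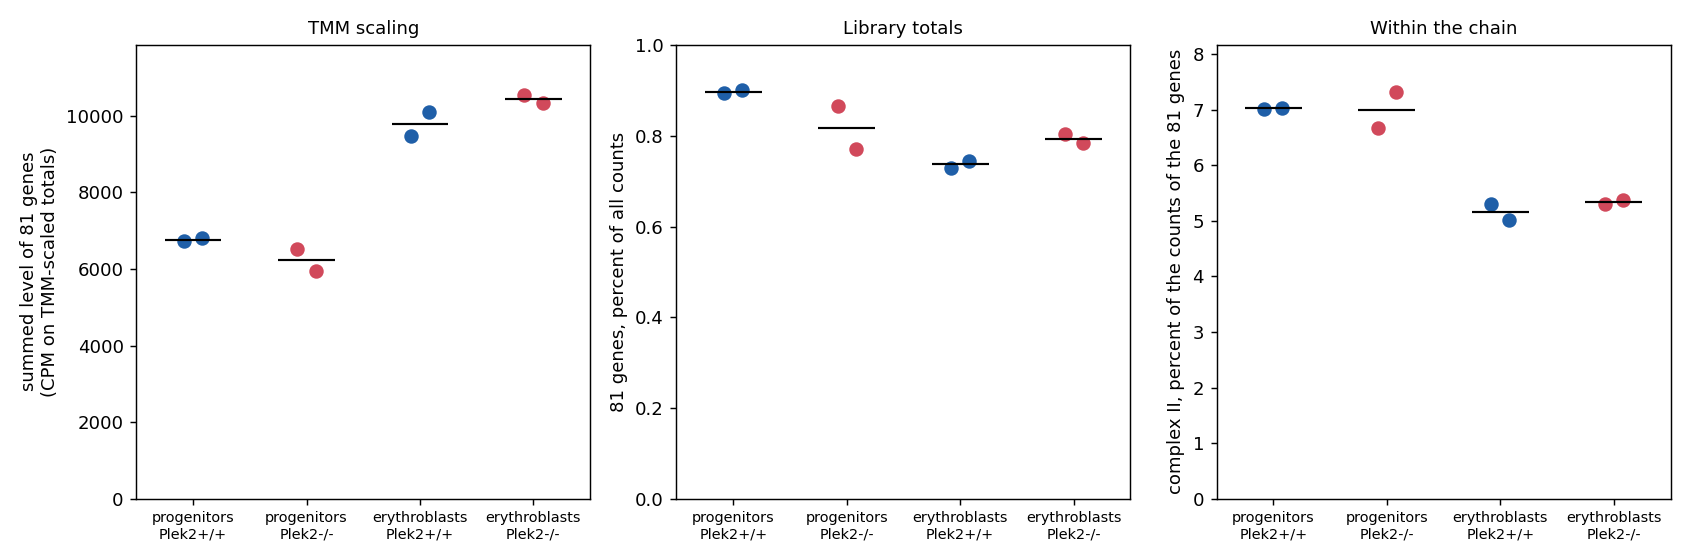
Each point is 1 library, in the 4 groups, and the bar is the mean of the 2 libraries. The panels show the summed TMM-scaled level of the 81 genes in CPM, their share of all counts in percent, and the share of complex II in the counts of the 81 genes in percent; the erythroblasts stand above the progenitors in the first panel and below in the third, while in the second panel the Plek2-/- groups overlap.

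The promoters of genes that were higher in erythroblasts are shown to let a reader see the sites that are textbook features of this class of genes. They come from RefSeq (GRCm38.p6) and run from 150 bases before the annotated start of transcription to 30 bases after it, in the direction of the gene. Capitals mark matches to the NRF1 motif, which is GCGCA, any base and then GCGC, to the ETS motif CCGGAAG, present here as its reverse complement, and to the YY1 motif AAGATGGC. Cox6a1, Atp5h and Uqcrh are genes whose level was higher in erythroblasts under each scaling, Sdhd is a complex II gene that was not called under the Plek2+/+ label, and Ndufa3 is shown for the place of its YY1 match, which was seen before it was chosen.
Cox6a1 (chr5:115348929-115349108, minus strand): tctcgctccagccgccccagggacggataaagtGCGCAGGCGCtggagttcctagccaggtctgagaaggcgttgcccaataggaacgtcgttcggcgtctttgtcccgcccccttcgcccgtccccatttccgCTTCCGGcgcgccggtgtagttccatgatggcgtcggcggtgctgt
Atp5h (chr11:115419890-115420069, minus strand): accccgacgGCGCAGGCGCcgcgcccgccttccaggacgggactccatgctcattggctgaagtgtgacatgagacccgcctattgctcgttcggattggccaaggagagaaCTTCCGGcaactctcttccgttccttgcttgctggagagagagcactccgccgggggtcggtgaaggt
Uqcrh (chr4:116075041-116075220, minus strand): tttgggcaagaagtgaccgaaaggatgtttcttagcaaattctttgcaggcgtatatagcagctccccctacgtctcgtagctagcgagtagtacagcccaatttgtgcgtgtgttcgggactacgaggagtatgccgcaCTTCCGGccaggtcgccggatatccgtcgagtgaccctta
Sdhd (chr9:50603820-50603999, minus strand): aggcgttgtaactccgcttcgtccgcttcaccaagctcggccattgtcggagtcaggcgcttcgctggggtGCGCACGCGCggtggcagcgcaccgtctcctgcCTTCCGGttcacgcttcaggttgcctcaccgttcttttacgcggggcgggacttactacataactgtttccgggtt
Ndufa3 (chr7:3617223-3617402, plus strand): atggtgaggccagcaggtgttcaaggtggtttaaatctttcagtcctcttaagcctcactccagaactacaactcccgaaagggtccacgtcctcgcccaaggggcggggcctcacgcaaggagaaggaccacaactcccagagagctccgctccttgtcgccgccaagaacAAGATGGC

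Over the whole RefSeq windows, from 250 bases before the start to 50 after it, 65 of the 81 genes had an entry, with 70 promoters between them. Both strands were searched. The NRF1 motif was in 17 of the 70 promoters (24.3%) and in 4.6% of all 32851 promoters of the table. The ETS motif was in 16 (22.9%), against 8.86% of all, and the YY1 motif in 9 (12.9%), against 2.75%. At least 1 of these motifs was in 36 promoters (51.4%), against 14.7% of all. The motif of oestrogen-related receptors, TNAAGGTCA, was in 3 (4.29%) against 1.28%. The motif AGATAA of the red cell factor Gata1 and the E-box motif CACGTG were in 5 promoters each (7.14%), against 11.2% and 7.15%. In 8 of the 9 promoters with the YY1 motif (88.9%) the match began 20 to 40 bases after the start, as in Ndufa3 above, and in Atp5j it began 88 bases before it. Of all 903 promoters with this motif, 21.2% had a match at that place, a range chosen after seeing the data.

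The population differences are given by motif as a description, with no test. Under the Plek2+/+ label, the median log2 fold change was 0.60 for genes with the NRF1 motif and 0.56 for those without. It was 0.52 with the ETS motif and 0.57 without, and 0.48 with the YY1 motif and 0.56 without. For AGATAA it was 0.33 with and 0.59 without, for the motif of oestrogen-related receptors 0.30 and 0.56, and for the E-box 0.47 and 0.56, over 3 to 5 genes with each. The order turned under the Plek2-/- label for the ETS motif, at 0.78 with and 0.70 without, and for the E-box, at 0.71 and 0.70. Among the promoters printed above, Cox6a1 and Sdhd carry the same pair of motifs, NRF1 and ETS, with a log2 fold change of 1.13 for Cox6a1 and 0.12 for Sdhd. A match is a string of letters and not a measured site.

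**Figure D2:**
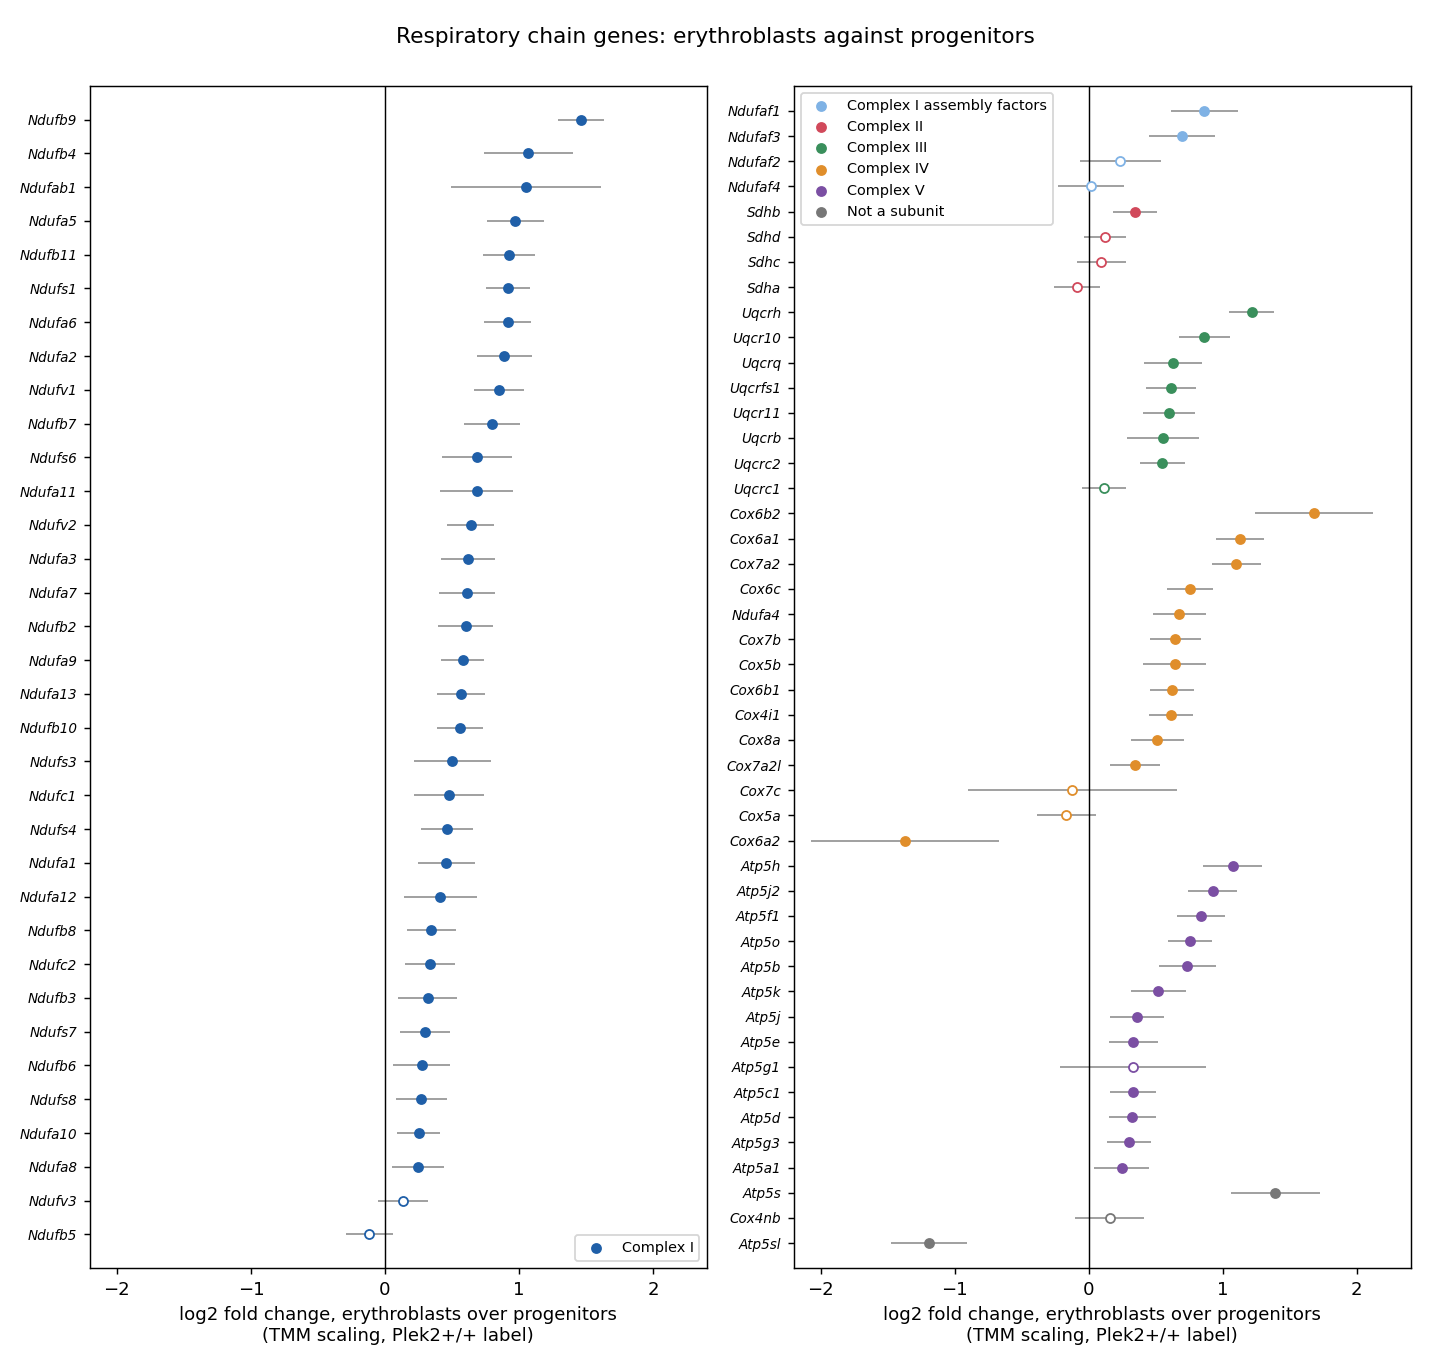
Each point is the log2 fold change of 1 gene, for 80 of the 81 genes, between erythroblasts and progenitors under the Plek2+/+ label with TMM scaling, and the line is its 95% confidence interval. Filled points were called at an adjusted p below 0.05 and open points were not; complex I is on the left, and the other complexes are on the right, where 3 of the 4 complex II genes are open points near 0.

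Complex I genes were higher in erythroblasts across the complex. Under the Plek2+/+ label 32 of the 35 subunits were higher and none lower, with a median log2 fold change of 0.57. Under the Plek2-/- label 33 were higher and 1, Ndufv3, was lower, with a median of 0.70. With library totals these counts became 1 higher and 18 lower, and 4 higher and 12 lower. The 7 core subunits, which hold the flavin and the iron-sulfur clusters, and the 28 supernumerary subunits, which surround them, had medians of 0.50 and 0.57 under the Plek2+/+ label. Ndufb5, a supernumerary membrane subunit, and Ndufv3 had log2 fold changes of -0.12 and 0.14 there and were not called.

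Ndufb9, a supernumerary subunit of the membrane arm, was the most abundant complex I gene per kb of exon and had the highest rise of the complex. Its level was 192 and 210 CPM in erythroblasts labelled Plek2+/+, 207 and 206 in those labelled Plek2-/-, 74.0 and 71.9 in progenitors labelled Plek2+/+ and 74.1 and 68.5 in those labelled Plek2-/-. The populations did not overlap, and the labels did not separate. The log2 fold change was 1.46 (edgeR adjusted p 2.3e-09, SE 0.08) under the Plek2+/+ label and 1.54 under the Plek2-/- label, or 2.75-fold and 2.9-fold. A part of its sequence is not its own: 28.6% of its exon bases overlap another gene and 23.4% of its 50-base words occur in another gene's transcripts. Ndufb4 and Ndufab1 followed, at 1.07 and 1.05 under the Plek2+/+ label. Ndufab1 encodes the mitochondrial acyl carrier protein, which also serves fatty acid and lipoic acid synthesis, and its level was only 3.92 and 3.46 CPM in erythroblasts and 1.36 and 2.12 in progenitors labelled Plek2+/+. Ndufs1, the large core subunit of the iron-sulfur clusters, has no such limit on depth and was named after its values were seen. It had 232 and 257 CPM in erythroblasts and 128 and 130 CPM in progenitors labelled Plek2+/+, and 278 and 283 against 125 and 124 CPM under the Plek2-/- label, log2 fold changes of 0.92 and 1.17.

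Of the assembly factors of complex I, Ndufaf1 and Ndufaf3 were higher in erythroblasts under both labels. Ndufaf1, which acts early in building the membrane arm, had 28.7 and 27.7 CPM in erythroblasts and 16.7 and 14.4 CPM in progenitors labelled Plek2+/+, a log2 fold change of 0.86 (edgeR adjusted p 1.81e-05, SE 0.12). Ndufaf3 had a log2 fold change of 0.70 under each label. Ndufaf2 and Ndufaf4 had log2 fold changes of 0.24 and 0.02 under the Plek2+/+ label, which were not called, and 0.64 and 0.36 under the Plek2-/- label, which were.

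Complex II lagged behind the rest of the chain. Sdhb, the iron-sulfur subunit, was the only 1 of its 4 genes called higher under the Plek2+/+ label. It had 103 CPM in both erythroblast libraries and 80.5 and 81.3 CPM in progenitors, a log2 fold change of 0.35 (edgeR adjusted p 0.00105, SE 0.08). Sdha, the flavoprotein that oxidises succinate, had 171 and 176 CPM in erythroblasts and 181 and 188 CPM in progenitors, a log2 fold change of -0.09. Sdhd, a membrane anchor and the most abundant of the 4 per kb, had 147 and 148 CPM in erythroblasts and 138 and 133 CPM in progenitors, a log2 fold change of 0.12. Sdhc, the other anchor, had a log2 fold change of 0.09. The complex II median was 0.11 under the Plek2+/+ label, beside 0.56 for all 81 genes. Under the Plek2-/- label all 4 were called higher, with log2 fold changes of 0.27 for Sdha, 0.51 for Sdhb, 0.31 for Sdhc and 0.40 for Sdhd and a median of 0.36, beside 0.76 for all 81. With library totals all 4 were lower under either label.

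The share of each complex in the counts of the 81 genes needs no scaling between libraries. Complex II took 5.01% to 5.38% of these counts in the 4 erythroblast libraries and 6.67% to 7.31% in the 4 progenitor libraries, with no overlap. Complex IV took 14.8% to 15.1% in erythroblasts and 13.7% to 14.0% in progenitors, also without overlap and in the other direction. The 3 genes that encode no subunit took 0.550% to 0.675% and 0.900% to 0.964%. Complex I took 26.3% to 26.8% and 25.7% to 26.7%, and complex III 11.15% to 11.57% and 10.83% to 11.17%. Complex V took 39.8% to 40.5% and 39.4% to 40.7%. The ranges of complexes I, III and V overlapped between the populations. These shares are of counts and not of proteins, and a long or abundant transcript weighs more in them.

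Complex III genes were higher in erythroblasts in 7 of 8 cases under the Plek2+/+ label (median 0.60) and in 8 of 8 under the Plek2-/- label (median 0.91); with library totals they became 1 higher and 4 lower, and 2 higher and 1 lower. Uqcrh, the small acidic hinge protein at the cytochrome c side, was the most abundant of them per kb. It had 191 and 194 CPM in erythroblasts labelled Plek2+/+, 203 and 207 in those labelled Plek2-/-, 85.7 and 80.0 in progenitors labelled Plek2+/+ and 81.7 and 74.6 in those labelled Plek2-/-. The populations stood apart by more than 2-fold under each label, with log2 fold changes of 1.22 (edgeR adjusted p 1.22e-08, SE 0.08) and 1.39. Uqcr10 and Uqcrq, small supernumerary subunits, had log2 fold changes of 0.86 and 0.63 under the Plek2+/+ label and 1.14 and 0.92 under the Plek2-/- label. Uqcrc1, a core protein, was not called under the Plek2+/+ label. It had 242 and 251 CPM in erythroblasts and 226 and 229 in progenitors, a log2 fold change of 0.12. Its partner Uqcrc2 had 244 and 242 CPM against 169 and 163 CPM, a log2 fold change of 0.55, though 26.6% of its exon bases overlap another gene. These 2 core proteins were named after their values were seen.

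In complex IV, cytochrome c oxidase, 11 of 14 genes were higher in erythroblasts under either label, with medians of 0.63 and 0.82, and Cox6a2 was lower under both; with library totals 3 were higher and 7 lower, and 3 higher and 3 lower. Cox6a1 and Cox7a2, the forms of 2 small membrane subunits found in most tissues, rose over 2-fold. Cox6a1 had 138 and 154 CPM in erythroblasts labelled Plek2+/+, 150 and 163 in those labelled Plek2-/-, and 67.9, 65.4, 64.9 and 62.5 CPM in the 4 progenitor libraries. Cox7a2 had 155, 167, 174 and 172 CPM in the erythroblast libraries and 74.8, 75.1, 76.4 and 65.9 CPM in the progenitor libraries. For either gene every erythroblast library lay far above every progenitor library. The log2 fold changes under the Plek2+/+ label were 1.13 (edgeR adjusted p 5.47e-08, SE 0.08) for Cox6a1 and 1.10 (edgeR adjusted p 8.38e-08, SE 0.09) for Cox7a2. Cox4i1, the most abundant complex IV gene per kb and a subunit that contacts the catalytic core, rose less. It had 335, 351, 377 and 368 CPM in erythroblasts and 225, 224, 208 and 193 CPM in progenitors, with log2 fold changes of 0.61 and 0.90. Cox5a had -0.17 and 0.08, with no call under either label; 41.7% of its exon bases overlap another gene.

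Several complex IV subunits have a second gene whose product is used in particular tissues. The balance within the Cox6a and Cox6b pairs differed between the populations, as did that between Cox7a2 and its relative Cox7a2l. Cox6a2, the heart and muscle form, was the only subunit gene lower in erythroblasts under both labels. It had 20 and 14 counts in erythroblasts labelled Plek2+/+, 9 and 3 in those labelled Plek2-/-, 57 and 88 in progenitors labelled Plek2+/+ and 89 and 92 in those labelled Plek2-/-. Every progenitor library lay above every erythroblast library, with log2 fold changes of -1.37 (edgeR adjusted p 0.00193, SE 0.32) and -2.87 (edgeR adjusted p 2.04e-05, SE 0.40). Without replicate 2 of the erythroblasts labelled Plek2-/-, which held 3 counts, the second became -2.19, and without replicate 1, which held 9, it became -3.93. Per kb of exon, Cox6a2 took 0.105% to 0.742% of the Cox6a pair in erythroblasts and 3.20% to 4.29% in progenitors. With a low mean count it passed the choice of genes through the progenitors, where it is high.

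Cox6b2, known from testis, moved the other way and had the largest log2 fold change of the 81 genes under the Plek2+/+ label. It had 13.3 and 20.9 CPM in erythroblasts labelled Plek2+/+, 16.4 and 14.7 in those labelled Plek2-/-, 4.98 and 5.63 in progenitors labelled Plek2+/+ and 5.53 and 6.78 in those labelled Plek2-/-. The log2 fold changes were 1.68 (edgeR adjusted p 6.86e-06, SE 0.20) and 1.33. Its broadly used partner Cox6b1 had 0.62 and 0.80. Cox6b2 therefore took 6.76% to 9.78% of the Cox6b pair per kb in erythroblasts and 3.99% to 5.79% in progenitors, and the ranges did not overlap. Cox7a2l, a relative of Cox7a2 linked to supercomplexes of complexes III and IV, had log2 fold changes of 0.34 and 0.40, less than those of Cox7a2. Its share of the Cox7a set per kb was 18.4% to 21.7% in erythroblasts and 29.3% to 31.5% in progenitors.

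**Figure D3:**
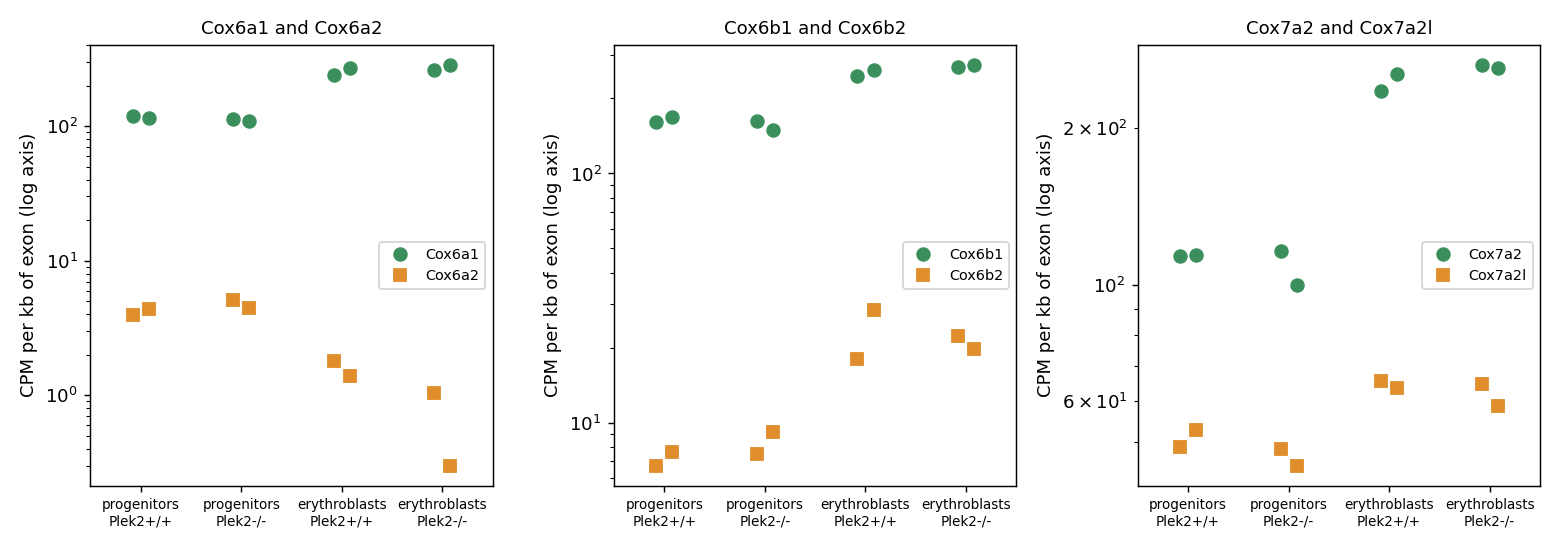
Each point is 1 library in the 4 groups, as TMM-scaled CPM per kb of exon on a log axis, for Cox6a1 and Cox6a2, Cox6b1 and Cox6b2, and Cox7a2 and Cox7a2l. Cox6a2 falls in the erythroblasts while Cox6a1 rises, Cox6b2 rises by more than Cox6b1, and Cox7a2 rises by more than Cox7a2l.

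Other tissue-specific forms had few or no counts. Cox4i2, the form induced by low oxygen, had 0 to 1 counts in erythroblasts and 7 to 20 in progenitors, beside 4788 to 6634 counts of Cox4i1 in progenitors. Ndufa4l2, a relative of Ndufa4 that is also induced by low oxygen, had 0 counts in every erythroblast library and 1 to 3 in the progenitors. Cox7a1, the heart and muscle form, had 1 to 8 counts in erythroblasts and 5 to 12 in progenitors. Cox8b, Cox8c and Cox7b2, forms of muscle or testis, were listed at 0 in all 8 libraries, which allows up to 3 counts each, while Cox8a and Cox7b had log2 fold changes of 0.51 and 0.64 under the Plek2+/+ label. Of the 3 genes for the same mature c-ring protein of complex V, Atp5g3 took 98.98% to 99.5% of the level per kb in both populations. The exon length used was 4912 bases for Atp5g1 and 724 for Atp5g3, which lowers the share of Atp5g1 per kb. Atp5g1 had 34 to 51 counts in erythroblasts and 46 to 81 in progenitors, beside 1653 to 2202 and 2245 to 3357 of Atp5g3. Atp5g2 had 4 to 17 counts and shares 38.3% of its 50-base words with other transcripts, so how far its low count reflects the counting was not tested.

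Complex V genes were higher in erythroblasts in 12 of 13 cases under the Plek2+/+ label (median 0.36) and in 13 of 13 under the Plek2-/- label (median 0.78); with library totals they became 1 higher and 7 lower, and 3 higher and 5 lower. Atp5b, the catalytic beta subunit of the F1 head, was the most abundant of the 81 genes, at 678 CPM per kb of exon over the 8 libraries, followed by Cox4i1 at 373 and Atp5a1, the alpha subunit, at 367. Atp5a1 and Atp5b together held 27.6% to 28.9% of the counts of the 81 genes. Atp5b had 1530 and 1690 CPM in erythroblasts and 957 and 979 CPM in progenitors labelled Plek2+/+, a log2 fold change of 0.73 (edgeR adjusted p 1.65e-05, SE 0.10). Atp5a1, which pairs with it in the same head, had 1120 and 1200 CPM against 976 and 984 CPM, a log2 fold change of 0.25 (edgeR adjusted p 0.0309, SE 0.09). The F1 genes had a median of 0.33 and the 4 genes of the peripheral stalk, which holds the head still, a median of 0.79 under the Plek2+/+ label.

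Within the stalk, Atp5h had 50.6, 60.5, 54.3 and 51.1 CPM in the erythroblast libraries and 26.8, 26.0, 25.2 and 23.8 CPM in the progenitor libraries. The lowest erythroblast library was well above the highest progenitor library, with log2 fold changes of 1.07 (edgeR adjusted p 6.95e-07, SE 0.10) and 1.10. Atp5f1 had log2 fold changes of 0.84 and 1.08, and Atp5j2, a small membrane subunit, 0.92 and 1.16. Atp5h and Atp5f1 share 36.9% and 37.6% of their 50-base words with transcripts of other genes. Atp5o, the stalk protein that confers sensitivity to oligomycin, lies entirely within exons of other annotated genes and yet had a log2 fold change of 0.75. Altogether, 14 of the 81 genes had 20% or more of their words or exon bases in common with another gene, a limit chosen after seeing the data. Among the other 67, 54 were higher and 2 lower under the Plek2+/+ label, with the same median of 0.56.

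The 3 genes that encode no subunit differed among themselves. Atp5sl, now known as an assembly factor for the membrane arm of complex I, was lower in erythroblasts. It had 8.26 and 10.3 CPM in erythroblasts and 21.9 and 20.5 in progenitors labelled Plek2+/+, and 7.43 and 7.27 against 20.9 and 19.8 under the Plek2-/- label, log2 fold changes of -1.19 (edgeR adjusted p 2.68e-06, SE 0.13) and -1.47. Its relative Atp5s was higher, with log2 fold changes of 1.39 and 0.92. Cox4nb, whose product Emc8 belongs to a membrane protein complex of the endoplasmic reticulum, had log2 fold changes of 0.16 and 0.41, the second called.

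Other genes of mitochondrial energy metabolism were described from lists of the pathway. Of all genes tested, 36.0% were higher and 37.8% lower in erythroblasts under the Plek2+/+ label. Under the Plek2-/- label the shares were 37.5% and 39.2%. Of 18 genes of the tricarboxylic acid cycle, 10 were higher and 4 lower in erythroblasts under the Plek2+/+ label, with a median log2 fold change of 0.26 (none higher and 15 lower with library totals). Dlst, part of the oxoglutarate dehydrogenase complex that makes the succinyl-CoA used for haem, rose by 0.82, and Idh2, the mitochondrial NADP-dependent isocitrate dehydrogenase, fell by 1.54 on the log2 scale. Of 13 other proteins of the chain, 7 were higher and 2 lower. Atpif1, the inhibitor of ATP hydrolysis by complex V, had 556 and 657 CPM in erythroblasts and 122 and 127 CPM in progenitors labelled Plek2+/+, a log2 fold change of 2.28 (edgeR adjusted p 2.6e-10, SE 0.10). Etfdh, which feeds electrons from fatty acid oxidation into coenzyme Q, rose by 0.79.

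Of 20 assembly factors for complexes II to V, 6 were higher and 8 lower under the Plek2+/+ label, with a median of -0.23, and 7 were higher and 4 lower under the Plek2-/- label, with a median of -0.041. Of 7 complex I factors without the Nduf prefix, 2 were higher and 3 lower under the Plek2+/+ label, and 3 higher and 1 lower under the Plek2-/- label. Their difference from the subunits was not tested. The other values of these lists are for the Plek2+/+ label, where 36.0% of all genes were higher and 37.8% lower. List counts near these shares show no change particular to the list. Cox11 and Cox17, copper carriers for complex IV, rose by 2.08 and 1.65. Among the complex I factors, Tmem186 rose by 0.61 and Acad9 fell by 0.44. Of 74 mitochondrial ribosomal proteins, 32 were higher and 12 lower, with a median of 0.18, and Mrpl32 and Mrpl20 rose by 1.38 and 1.24. Of 21 import genes, 7 were higher and 6 lower, with Timm8b at 1.04 and Tomm22 at 0.60, and of 9 coenzyme Q genes 3 were higher and none lower, with Coq10b at 1.82 and Coq5 at 0.55. Of 23 regulators, 10 were higher and 8 lower. Nrf1, whose product binds the motif of that name, rose by 1.29, and Myc fell by 1.88. All of these lists leaned to lower counts with library totals, as the 81 genes did. Each of their medians lay below the 0.56 of the 81 genes.

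Across the 81 genes the population differences were alike under the labels. The population differences under the Plek2+/+ and Plek2-/- labels, which use different libraries but were fitted together, had a Pearson correlation of 0.90 across the 81 genes, which are not independent of one another. All 66 genes higher under the Plek2+/+ label were also higher under the Plek2-/- label, and the 2 lower genes, Atp5sl and Cox6a2, were lower under both. The same overlap and correlation are not given for all tested genes, so neither can be called particular to these 81. The log2 fold change, with its sign, was higher under the Plek2-/- label for 71 of the 81 genes, where this held for 55.3% of all genes. Atp5sl and Cox6a2, which were lower by more under that label, are not among the 71.

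**Figure D4:**
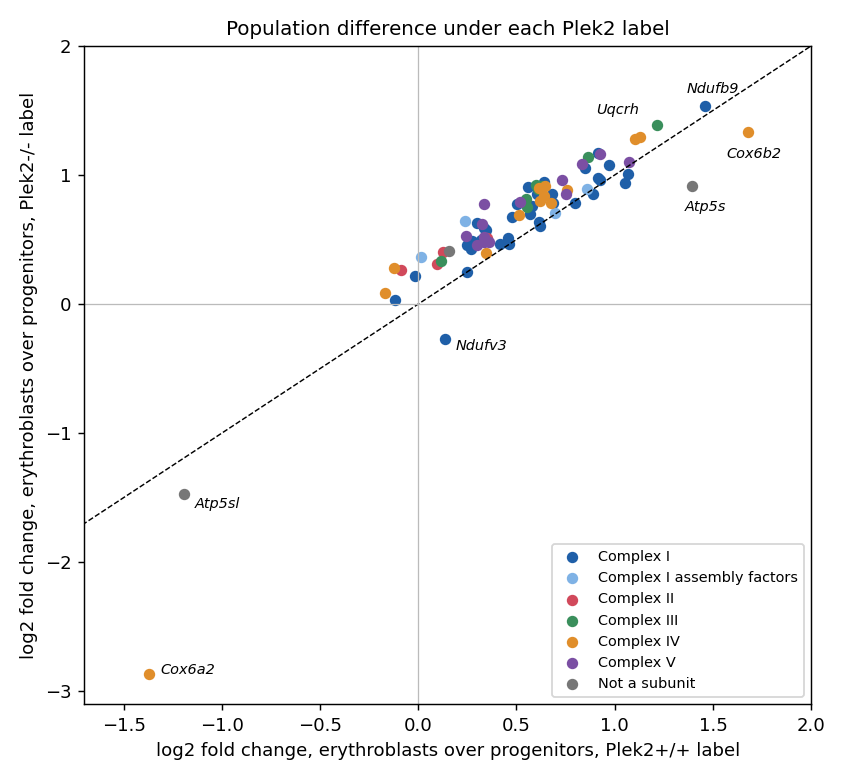
Each point is 1 of the 81 genes, coloured by complex, with its log2 fold change between erythroblasts and progenitors under the Plek2+/+ label on the x axis and under the Plek2-/- label on the y axis. The dashed line marks equal changes; 71 of the 81 points lie above it, and Cox6a2, Atp5s, Cox6b2 and Ndufv3 are among those below.

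Between the Plek2 labels, single respiratory chain genes hardly differed in erythroblasts. None of the 81 was called higher in the libraries labelled Plek2-/- and 1, Atp5s, was called lower, where 0.18% of all 12241 genes were higher and 2.66% lower (edgeR). At an unadjusted p below 0.05, 3 genes (3.7%) were higher and 3 (3.7%) lower, against 4.16% and 10.5% of all genes. DESeq2 called none and limma-voom 1. The differences were small and mostly of 1 sign: the median log2 fold change was 0.10, and 65 of the 81 were positive, against 52.5% of all genes. Without replicate 1 of Plek2+/+ the median became 0.062, with 57 positive. In 42 genes both Plek2-/- libraries lay above both Plek2+/+ libraries, where 21.5% of all genes did so, and in 6 they lay below, where 23.9% did. For 74 of the 81 genes the 95% confidence interval of the fold change lay within 1.5-fold in either direction.

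Atp5s had 15.0 and 17.4 CPM in erythroblasts labelled Plek2+/+ and 10.7 and 8.84 CPM in those labelled Plek2-/-, a log2 fold change of -0.72 (edgeR adjusted p 0.0377, SE 0.17). The groups did not overlap. The call was lost with DESeq2 (adjusted p 0.0687), with library totals (adjusted p 0.0651), and without replicate 2 of Plek2-/- (adjusted p 0.207), replicate 1 of Plek2+/+ (adjusted p 0.135) or replicate 2 of Plek2+/+ (adjusted p 0.235), each with edgeR unless named. The log2 fold change stayed at -0.72 with DESeq2 and with library totals and was -0.59, -0.82 and -0.63 without those replicates. Cox6a2 had a log2 fold change of -1.29 with an edgeR adjusted p of 0.307. Ndufv3, a small subunit near the NADH site, had 40.03 and 40.66 CPM under the Plek2+/+ label and 33.4 and 32.6 under the Plek2-/- label, a log2 fold change of -0.28 with an edgeR adjusted p of 0.218. Ndufs1, Sdha and Uqcrc2 had 0.21, 0.21 and 0.23, with adjusted p of 0.323, 0.264 and 0.229 in edgeR. In these same libraries markers of other cells were lower under the Plek2-/- label: 9 of 14 for neutrophils, 5 of 8 for primary granules, 5 of 10 for B cells and 4 of 9 tested for eosinophils, basophils and mast cells, with none higher. Their summed levels in the Plek2+/+ and Plek2-/- libraries were 1013 to 1183 and 775 to 808 CPM for primary granules, 165 to 195 and 77.0 to 109 CPM for B cells, and 2148 to 2552 and 931 to 1377 CPM for the last list, in which 1 marker was at 0 in 1 Plek2-/- library. The sexes differed as well. Their part in the result was not tested.

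In progenitors the label differences were again small, and their direction rested on 1 library. None of the 81 genes was called (edgeR), where 4.5% of all 13168 genes were higher and 0.402% lower. At an unadjusted p below 0.05, none was higher and 2 (2.47%) were lower, against 11.5% and 5.75% of all genes, and neither DESeq2 nor limma-voom called any. The median log2 fold change was -0.05, and 19 of the 81 were positive, against 47.4% of all genes. Without replicate 2 of Plek2-/- the median became 0.014, with 49 positive, and without replicate 1 it became -0.13, with 15 positive. In 38 genes both Plek2-/- libraries lay below both Plek2+/+ libraries, where 33.2% of all genes did so, and in 4 they lay above, where 19.0% did. For 76 of the 81 the confidence interval lay within 1.5-fold. The genes with the lowest p were Atp5g1, at -0.58 (1.79 and 1.51 CPM against 2.30 and 2.73), Cox5b, at -0.21 (25.5 and 24.04 CPM against 28.3 and 30.8), and Atp5d, at -0.18 (82.5 and 73.4 CPM against 92.7 and 88.5), with edgeR adjusted p of 0.241, 0.254 and 0.306.

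The progenitor libraries labelled Plek2-/- were not alike. As shares of all counts the 81 genes took 0.865% in replicate 1 and 0.771% in replicate 2, beside 0.894% and 0.902% under the Plek2+/+ label. Without replicate 1, the median log2 fold change of the 81 genes was -0.13 (edgeR), with Atp5a1 at -0.24, Atp5b at -0.18 and Cox4i1 at -0.18. Without replicate 2, the median was 0.014, with Sdha at -0.21. The lone library left in each case is assumed to vary like the others. The summed neutrophil markers were 19742 CPM in replicate 1 and 26738 in replicate 2, against 7782 and 4674 under the Plek2+/+ label, with 14 of 14 markers called higher and none at 0 in any library. Their part in the lower respiratory chain values was not tested.

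**Figure D5:**
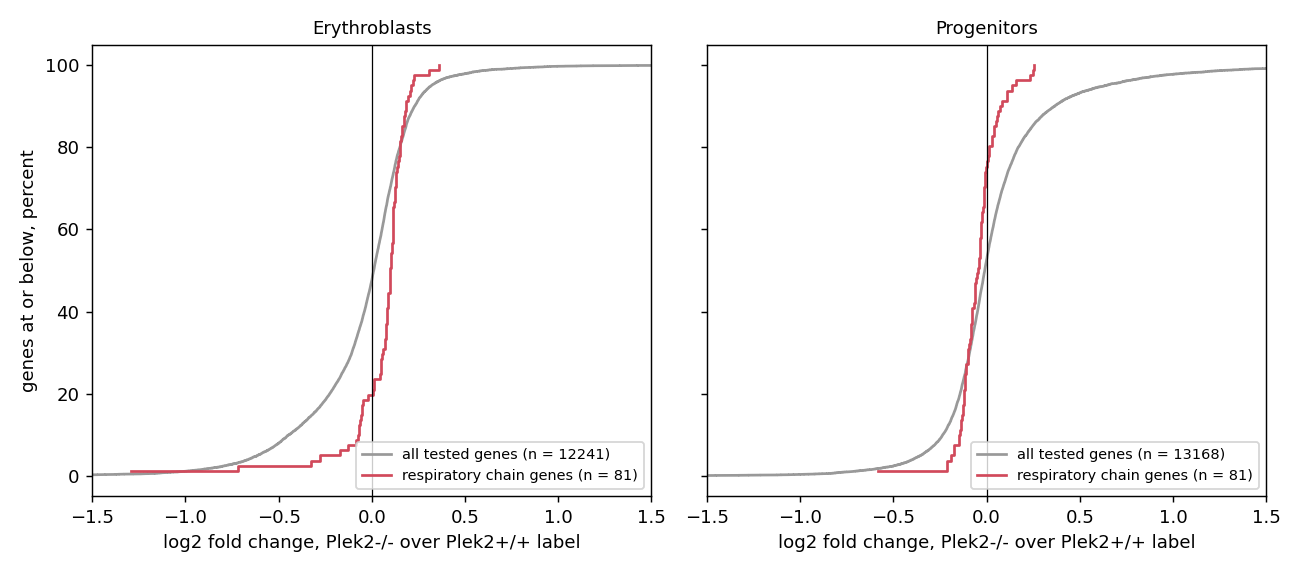
Cumulative percent of genes at or below each log2 fold change between libraries labelled Plek2-/- and Plek2+/+, in erythroblasts and in progenitors, for the 81 respiratory chain genes and for all tested genes (the axis ends at 1.5 in either direction). The red curve stands right of 0 for most genes in erythroblasts, with a median of 0.10, and left of it in progenitors, with a median of -0.05, and is steeper than the grey curve in both.

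The difference between the label effects in the populations was tested gene by gene. No gene of the 81 was called, where 0.232% of all genes were called higher and 5.32% lower (edgeR). At an unadjusted p below 0.05 there were 16: 14 positive (17.3%) and 2 negative (2.47%), against 6.32% and 11.9% of all genes. DESeq2 and limma-voom called none. The median of the difference was 0.18, against 0.04 for all genes. It became 0.075 without replicate 1 of the erythroblasts labelled Plek2+/+ and 0.11 without replicate 2 of the progenitors labelled Plek2-/-. By complex, it was positive in 29 of 35 complex I genes, 4 of 4 complex II genes, 8 of 8 complex III genes, 12 of 14 complex IV genes and 13 of 13 complex V genes. The lowest p belonged to Ndufv3, at -0.40 (edgeR adjusted p 0.0885, SE 0.12), Ndufb10, a membrane arm subunit, at 0.35 (adjusted p 0.0997), and Sdha, at 0.35 (adjusted p 0.102). Ndufv3 was thus opposite in sign to most of the complex, with 36.9 and 36.6 CPM in progenitors labelled Plek2+/+ and 41.2 and 38.4 in those labelled Plek2-/-. For 64 of the 81 the confidence interval of the difference lay within 1.5-fold. Without replicate 2 of the progenitors labelled Plek2-/- the difference for Sdha was 0.45. Without replicate 1 of the erythroblasts labelled Plek2-/- that for Cox6a2 was -2.62. All 14 neutrophil markers, 4 of 10 B cell markers and 3 of 8 primary granule markers had a called difference below 0 in the same test, and their part was not tested.

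The X-linked genes of the set were looked at singly because sex and label coincide. Ndufa1, Ndufb11 and Cox7b, subunits of complexes I and IV, had log2 fold changes of 0.10, 0.06 and 0.16 between the labels in erythroblasts and 0.07, 0.06 and -0.08 in progenitors. None was called, and the values lay within the range of the autosomal genes.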

How the data were processed

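RNA sequencing of 8 libraries, 2 in each of 4 groups, was analysed from processed tables. The deposited raw table holds whole counts of reads per gene by symbol. The deposited normalized table holds signal, which was checked to equal the counts divided by 1 size factor per library; 100% of its values gave whole reads within 0.001, and the same test on them gave the same calls. The submitters' processing notes name DESeq2 1.14.1, HTSeq 0.6.1pl, cutadapt 1.13, STAR 2.5.2a and the build mm10. Not given in the sources used here are the role of each, the annotation, the strand setting and the treatment of reads that match several genes, so values of genes that share sequence or overlap others are uncertain.

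Counts were tested with edgeR 4.0.16 (quasi-likelihood, TMM, default filter on low counts) in R 4.3.3, with Benjamini-Hochberg adjustment over all tested genes and calls below 0.05. The population comparisons and the difference of label effects used 1 fit of all 8 libraries, and each label comparison used its own 4. Alternatives were DESeq2 1.42.0, limma-voom (limma 3.58.1), other scalings, other filters and samples in the fit, a replicate block, and each library left out. The test was checked on simulated data with 200 genes changed 2-fold. It recovered 80% to 91% of them, and 3.2% to 7.5% of its calls were false. Far fewer genes changed there than between the populations here, so this does not check the scaling. Levels are TMM-scaled CPM, divided by exon length where genes are compared. Of the 90 symbols, 88 matched GENCODE vM21 (GRCm38, which is mm10) directly and 2 through RefSeq synonyms. Same-numbered libraries deviated together with correlations from -0.10 to 0.14. With 2 libraries a group, this cannot show whether same-numbered libraries come from the same mouse.

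The members and lists were chosen with earlier results of these data known. Named genes are, per complex, the most abundant per kb and the 3 largest called rises and falls under the Plek2+/+ label, the lowest p in label comparisons, isoform sets, X-linked genes, those at the count limit, and 2 called genes per pathway list. Precision is limited by 2 libraries a group. The values of 1 gene are not reported here singly, though it entered every count and median. Where a count is 0, 3 counts are taken as the most it allows, for counting error only.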

Additional observations from a re-analysis of the deposited data

How the results depend on the processing

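Scaling changed the most. Under the Plek2+/+ label, 66 higher and 2 lower genes became 7 and 44 with library totals and 42 and 10 with upper-quartile factors. Under the Plek2-/- label, 75 and 3 became 12 and 28 with library totals. The shares of all genes called under these scalings are not given. The 1 lower call between labels in erythroblasts became 0 with DESeq2 and with library totals. Among subunits only it was 0 by definition, as Atp5s is no subunit. The 2 lower calls under the Plek2+/+ label became 1 with a mean count of 100 or more and 1 among subunits only. Both losses follow from the choice of genes, as Cox6a2 has a mean of 46.5 counts and Atp5sl is no subunit. Leaving out 1 library at a time gave 58 to 67 higher genes under the Plek2+/+ label and 69 to 75 under the Plek2-/- label, 0 to 1 lower between labels in erythroblasts, 0 to 20 lower in progenitors, and 0 to 1 higher and 0 to 1 lower for the difference of label effects. A lone library in such a fit is assumed to vary like the others. The replicate block gave the same counts of calls in all 5 comparisons (66 and 2, 75 and 3, 0 and 1, 0 and 0, 0 and 0), so pairing by number changed no count.

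Among the genes picked by the naming rule, single log2 fold changes turned sign mainly with library totals. Under the Plek2+/+ label these were -0.083 for Atp5b, -0.49 for Atp5d, -0.48 for Atp5g1, -0.51 for Atp5g3, -0.20 for Cox4i1, -0.18 for Cox5b, -0.20 for Cox6b1, -0.47 for Cox7a2l, -0.17 for Cox7b, -0.30 for Cox8a, -0.36 for Ndufa1, -0.14 for Ndufa4, -0.12 for Ndufaf3, -0.26 for Ndufb10, -0.68 for Ndufv3, -0.47 for Sdhb, -0.69 for Sdhd and -0.19 for Uqcrq. Upper-quartile factors gave -0.00252 for Atp5g3, -0.17 for Ndufv3 and -0.18 for Sdhd. With 1 library left out, Cox7c ranged from -0.45 to 0.27, and Sdha was at 0.0054 without replicate 1 of the erythroblasts. Under the Plek2-/- label, library totals gave -0.17 for Atp5d, -0.0084 for Atp5g1, -0.33 for Atp5g3, -0.39 for Cox7a2l, -0.50 for Cox7c, -0.10 for Cox8a, -0.27 for Ndufa1, -0.0058 for Ndufa4, -0.082 for Ndufaf3, -0.52 for Sdha, -0.28 for Sdhb and -0.38 for Sdhd. Upper-quartile factors gave -0.016 for Cox7c and -0.031 for Sdha. With 1 library left out, Cox7c ranged from -0.027 to 0.63. Over the genes picked by the naming rule and the settings tried for them, 1390 values kept sign and call, 42 kept the sign and lost the call, and 8 gained one. Other genes given in the text, among them Uqcrc1, Uqcrc2, Atp5a1, Atp5o, Cox5a, Sdhc and Ndufs1, are not in this tally or the lists above. With library totals under the Plek2+/+ label, the median log2 fold change was -0.27 for Uqcrc1, Uqcrc2 and Uqcrfs1 and -0.48 for the F1 genes. The cause of these changes was not tested.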
